A study of Homo sapiens with 2 samples.

Results

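Genes that carry the name of a sequencing clone or of 2 neighbouring genes were examined in the human microglial line HMC3, an established cell line, after treatment with recombinant human periostin (rhPOSTN) or PBS. A row of the expression tables was taken as a member when its name was a clone name (for example AL132780.3), or when it held a hyphen and the part before or after the first hyphen was itself the name of another row (for example HSPE1-MOB4). This rule used names only and found 186 members among the 11943 listed protein-coding genes, 122 with a clone name and 64 with a hyphenated name. Of the hyphenated names, 50 had both parts listed and 14 had 1 part listed. NCBP2-AS2 and MMP24-AS1 met the rule although their names mark an antisense position and not a join of neighbours.

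Both groups were labelled as wild type HMC3 cells, and the rhPOSTN and PBS groups held 3 libraries each, made after a single dose and duration of treatment. rhPOSTN is a secreted matricellular protein that binds integrins, and PBS was its vehicle. Whether the 3 libraries of a group were grown as separate cultures is stated neither in the labels nor in the methods. The p-values below therefore reflect spread among libraries that may be technical. Levels are given in FPKM, which divides the fragments of a gene by its transcript length and by the number of fragments mapped in the library, and the number of reads behind them is unknown.

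Transcription of a human gene normally ends after the nascent RNA has been cleaved and polyadenylated. When the polymerase runs on into the next gene of the same strand, splicing can join exons of the upstream gene to exons of the downstream gene. The resulting readthrough transcript is built largely from exons that its parent genes also use, and many such transcripts shift the reading frame and are substrates of nonsense-mediated decay. Annotations list a readthrough transcript as a gene of its own, named after both parents where a name was approved and after the clone where none was.

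Members lay on 22 chromosomes, most often on chromosome 19 with 23 and chromosome 17 with 20. The share of members that overlapped another listed row on the same strand was 90.9% (169 of 186), against 6.35% of all other rows. Of these 169, 43 overlapped 1 row, 114 overlapped 2 rows and 12 overlapped 3 or more. In GENCODE release 29, an annotation that need not be the one the authors used, 168 members were found by their Ensembl identifier. The annotation tagged 156 of the 168 as readthrough genes, 94 of 104 with a clone name and 62 of 64 with a hyphenated name. The annotation gave another name to 19 members with a clone name and 3 with a hyphenated name, so names below are those of the deposited tables. At least 1 transcript of 104 of the 168 matched members (61.9%) was annotated as a target of nonsense-mediated decay.

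Little of a typical member was its own sequence. Among the 160 matched members with a same-strand overlap, a median of 95.5% of the exonic bases also belonged to exons of the overlapping rows. All exonic bases were shared for 59 members, at least 90% for 95, and under 50% for 26. For 103 members an annotated intron bridged from an exon of 1 overlapping row to an exon of another, and 53 members had exactly 1 intron that no overlapping row had. The first exon began within 100 bases of the start of an overlapping row in 57 members and within 1000 bases in 101.

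**Figure D1:**
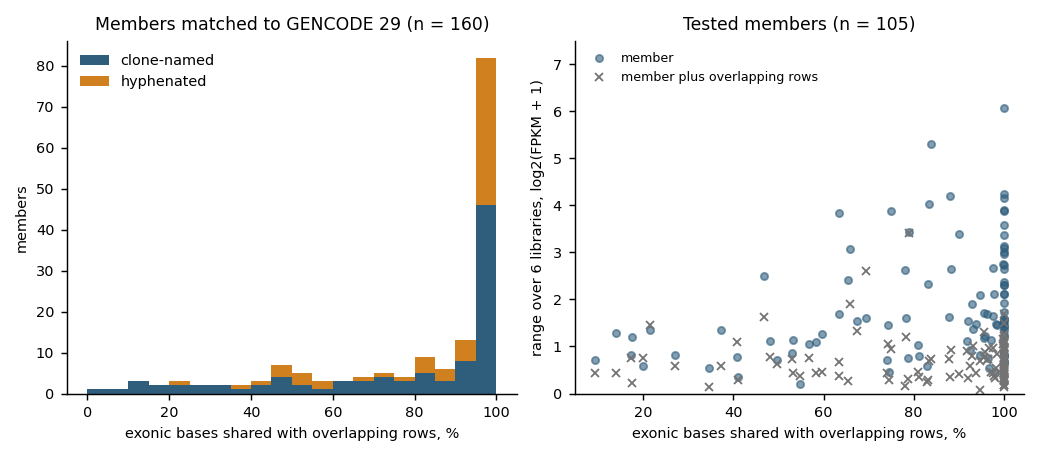
Exon sharing of members with the rows they overlap on the same strand. Left, the number of members (bars, stacked by kind of name) by the percentage of exonic bases shared, for the 160 members matched to GENCODE 29, of which 59 sit at 100%. Right, for the 105 tested members among them, the range over 6 libraries on the log2(FPKM + 1) scale of the member alone (circles) and of the member plus its overlapping rows (crosses) against the same percentage; circles with a range above 2 lie mostly at the right edge.

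The junctions that set the members discussed below apart from their parents are shown here, because for most of them this point is the whole of the difference. Each sequence runs 5′ to 3′ across the junction in a GENCODE 29 transcript, with the last bases of the upstream gene in lower case and the first bases of the downstream gene in capitals. Windows hold 30 bases on each side where all of them are coding, and 15 on each side otherwise.
AL132780.3: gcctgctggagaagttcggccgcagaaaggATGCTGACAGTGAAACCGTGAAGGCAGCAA
HSPE1-MOB4: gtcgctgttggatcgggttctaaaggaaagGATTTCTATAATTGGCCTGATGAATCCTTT
BLOC1S5-TXNDC5: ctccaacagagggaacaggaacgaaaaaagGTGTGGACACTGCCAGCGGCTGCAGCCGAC
TMEM189-UBE2V1: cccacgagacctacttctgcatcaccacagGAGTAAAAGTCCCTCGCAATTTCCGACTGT
NME1-NME2: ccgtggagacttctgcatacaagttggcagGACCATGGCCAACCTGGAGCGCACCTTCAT
INO80B-WBP1: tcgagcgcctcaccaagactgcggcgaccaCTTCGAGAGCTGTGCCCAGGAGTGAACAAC
MINOS1-NBL1: tgcacagcaacttctGGCTCTGGAGGCCAC

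On GRCh38, the build of GENCODE 29, the exon of AJUBA ended at base 22982209 of the minus strand of chromosome 14 and the exon of HAUS4 began at base 22948013, an intron of 34195 bases. For HSPE1-MOB4 the exon ends lay at 197501238 and 197523624 on the plus strand of chromosome 2, and for BLOC1S5-TXNDC5 at 8026367 and 7904723 on the minus strand of chromosome 6. The junction of TMEM189-UBE2V1 joined 50127975 to 50096820 on the minus strand of chromosome 20. NME1-NME2 joined 51161272 to 51166827 on the plus strand of chromosome 17. For INO80B-WBP1 the joined bases were 74457538 and 74459643 on the plus strand of chromosome 2, and for MINOS1-NBL1 19600971 and 19655012 on the plus strand of chromosome 1. The junction of AL132780.3 followed base 50 of an 835-base transcript.

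Across all genes, PBS library 3 differed most from the rest. Correlations of the pairs that included it were 0.926 to 0.949, against 0.977 to 0.985 for the other 10 pairs of libraries, and mitochondrially encoded genes took 1.48% of its summed FPKM, against 4.95% to 7.77% in the other 5. Of 18 microglial markers 15 were not analysed here, and TREM2 and CD68 were among those listed. No marker of astrocytes or T cells was listed. Of the 4 listed markers of pericytes and fibroblasts, whose summed FPKM was 115 to 149.7 in rhPOSTN libraries, against 121, 111 and 338 in PBS libraries 1, 2 and 3, COL1A1 alone had 324 FPKM in PBS library 3. COL1A2 was also highest in that library, with 1.36 FPKM, against 0.393 and 0.305 in PBS libraries 1 and 2 and 0.383 to 0.572 in rhPOSTN libraries. PDGFRB and ACTA2 had 7.80 and 4.37 FPKM in PBS library 3, against 8.38 and 4.32 in PBS library 1 and 8.27 and 4.47 in PBS library 2. The summed FPKM of 4 epithelial markers was 97.6 to 109 in rhPOSTN libraries, against 102, 108 and 149.9 in PBS libraries 1, 2 and 3. EPCAM, KRT8 and KRT18 were highest in PBS library 3, and CDH1 was lowest there, at 1.04 FPKM. The part of these genes in the results below was not tested. Values of members without PBS library 3 are given where they change a call.

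Members were expressed at low levels. Their mean FPKM over 6 libraries had a median of 1.31, against 6.29 over all rows, and ranged from 0.273 to 209. On average 15 members reached 10 FPKM, 92 lay between 1 and 10 FPKM and 79 lay below 1 FPKM. Together they took 0.411% to 0.512% of the summed FPKM in rhPOSTN libraries and 0.442% to 0.582% in PBS libraries. The filter of a mean of at least 1 FPKM in at least 1 group left 122 members for the test, 68 with a clone name and 54 with a hyphenated name.

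Values listed at 0 were concentrated in members. Of 47 rows listed at 0 in at least 1 library, 33 were members, which is 17.7% of members against 0.119% of other rows. Each of the 33 overlapped another row on the same strand. Among them 28 reached at least 1 FPKM in another library, and 7 reached at least 5 FPKM. Zeros were found in 1 library for 16 members, in 2 for 7, in 3 for 4, in 4 for 4 and in 5 for 2. Without counts, a value listed at 0 cannot be told apart from a failed estimate.

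The spread between libraries of 1 group was also wider in members than in the table as a whole. The SD of log2(FPKM + 1) over 3 libraries had a median of 0.25 in rhPOSTN and 0.53 in PBS libraries for the 122 tested members, against 0.12 and 0.24 for all 10982 tested rows. A range above 1 on the log2 scale (the FPKM + 1 of the highest library more than 2-fold that of the lowest) was found in 29.5% of tested members in rhPOSTN libraries, against 3.44% of all tested rows, and in 49.2% of tested members in PBS libraries, against 12.1%. At 1 to 10 FPKM the shares were 27.2% of 92 members against 3.95% of 6586 rows in rhPOSTN libraries. Between PBS libraries 1 and 2 alone, 16.4% of tested members differed by more than 1, against 1.43% of all tested rows. The 12 tested members with no same-strand overlap had median SDs of 0.18 in rhPOSTN and 0.22 in PBS libraries. Other rows that overlapped a member lay between, with 7.07% of 283 in rhPOSTN and 25.1% in PBS libraries above a range of 1.

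**Figure D2:**
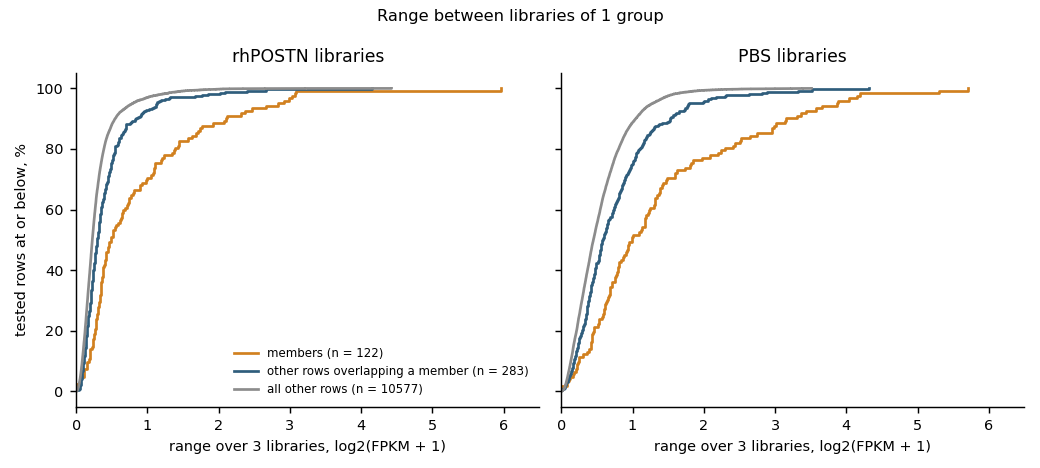
Cumulative percentage of tested rows (vertical axis) at or below a given range between the 3 libraries of a group on the log2(FPKM + 1) scale (horizontal axis), for rhPOSTN libraries on the left and PBS libraries on the right. Lines stand for members, for other rows that overlap a member on the same strand, and for all remaining rows; the line of the members lies to the right of both others in each panel.

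The summed FPKM of a member and its overlapping rows varied less than the member alone. For the 110 tested members with a same-strand overlap, the range over all 6 libraries had a median of 1.48 for the member alone and 0.62 for the summed FPKM of the locus, and the sum had the smaller range in 99 of them. A range above 2 was seen in 37 members with a median of 2.98, and their summed loci had a median range of 0.73. Of these 37, 18 had a correlation below -0.5 with the sum of their overlapping rows and 5 had 1 above 0.5. Since FPKM is scaled by transcript length, such a sum is not a sum of reads. Over all 169 members with an overlap, the mean share of the member in the sum had a median of 9.05%. The sum thus rests mostly on the other rows, and its smaller range is largely built in. The range went with exon sharing as a description: its median was 1.74 in 37 tested members with all exonic bases shared, 1.52 in 54 with 50% to under 100% shared, and 0.81 in 14 with under 50% shared. Over the 311 pairs of a member with an overlapping row, the correlation over the 6 libraries had a median of -0.14, with 99 pairs below -0.5 and 66 above 0.5. Against the sum of its overlapping rows, 31.4% of 169 members lay below -0.5 and 20.7% above 0.5. Among 452 other rows that overlapped another row but no member, the shares were 23.0% and 24.8%, so correlations of this size were common without members too. Of 20 pairs below -0.9, AC010441.1 with SMIM3 and BLOC1S5-TXNDC5 with TXNDC5 came first. Points of a pair share their library, and many of these correlations rest on 1 or 2 libraries.

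The question of the main comparison was which members differed between cells given rhPOSTN and cells given PBS. With limma, 1 of 122 tested members passed an adjusted p of 0.05, AL132780.3, which was higher in rhPOSTN libraries, and none was lower. Over all tested rows 0.0182% passed as higher and 0.0% as lower. At an unadjusted p under 0.05, 7 members were higher and 6 lower (5.74% and 4.92%), against 2.45% and 0.765% of all tested rows. The groups did not overlap in 13 members that were higher and 3 that were lower (10.7% and 2.46%), against 8.94% and 2.76% of all tested rows. A member with a mean below 1 FPKM in 1 group was tested through the other alone, which favours a difference in that direction. Of the 3 lower members, MINOS1-NBL1 had a value above 0.01 FPKM in PBS library 3 alone. Among members the median log2 difference, rhPOSTN minus PBS, was 0.04, against 0.06 over all tested rows. The median standard error was 0.34 for members, against 0.16 over all tested rows. After AL132780.3 the smallest adjusted p of a member was 0.951.

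**Figure D3:**
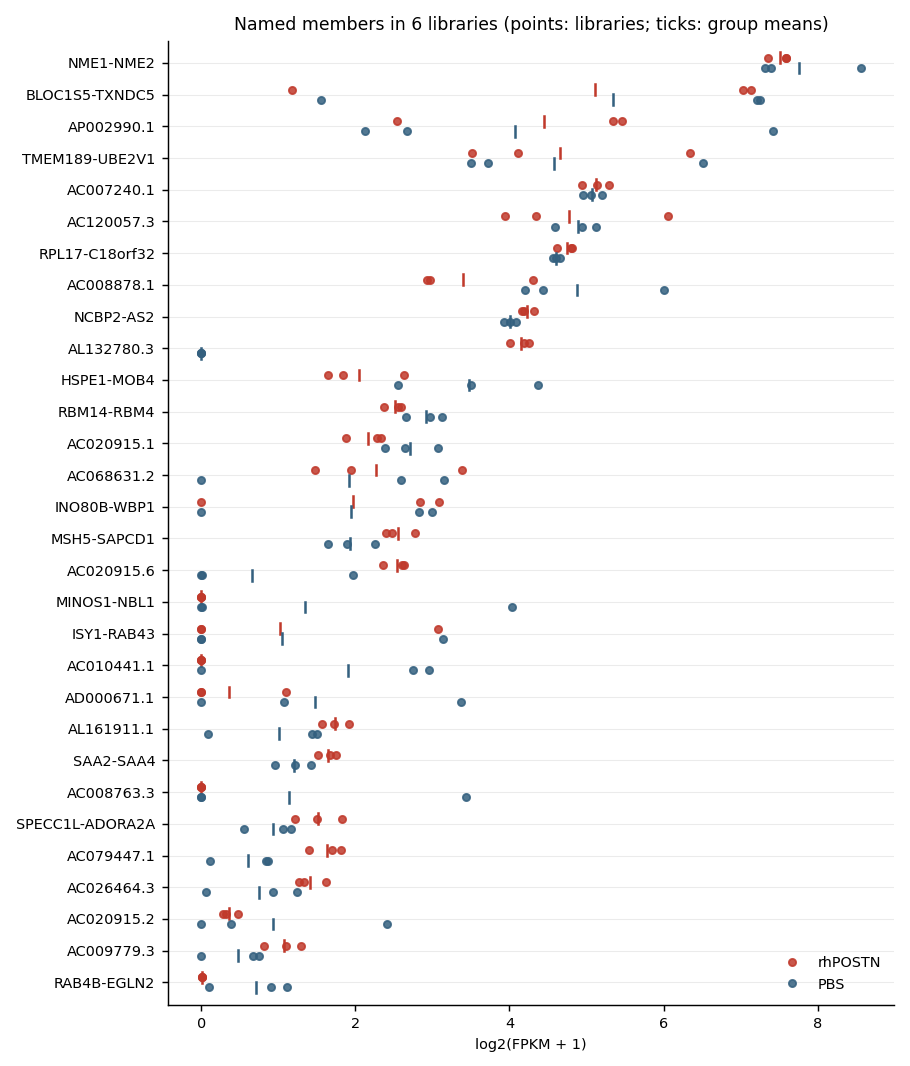
log2(FPKM + 1) (horizontal axis) of the 30 named members in the 3 rhPOSTN libraries (upper points of each row) and the 3 PBS libraries (lower points), with group means as vertical ticks, ordered by mean FPKM. AL132780.3 is the member whose 3 PBS points all lie at 0 while its 3 rhPOSTN points lie near 4.

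AL132780.3 (ENSG00000259132, chromosome 14, 23415479 to 23451467 on the minus strand, GRCh37) joins AJUBA, a LIM domain protein of cell junctions and Hippo signalling, to HAUS4, a subunit of the augmin complex that nucleates microtubules in the spindle. Its FPKM was 17.2, 18.0 and 15.03 in rhPOSTN libraries, and it was listed at 0 in PBS libraries 1, 2 and 3. The groups did not overlap, and the adjusted p was 9.2e-05 (limma). The member passed the filter through its rhPOSTN values alone, which favours a difference in that direction. Without the filter its adjusted p was 0.0001 (limma), where 2 of 11943 rows were called. No fold is given because the PBS group is listed at 0. All 835 annotated exonic bases of the member were shared, 94.0% with HAUS4 and 5.99% with AJUBA, and the junction shown above was its 1 own intron.

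HAUS4 itself had 6.76, 7.59 and 6.44 FPKM in rhPOSTN libraries, against 8.56, 8.09 and 21.0 FPKM in PBS libraries. The 3 rhPOSTN values lay below the 3 PBS values, and the log2 difference was -0.65 ± 0.34 (SE, n = 3 each), which missed the threshold (adjusted p = 0.951, limma). AJUBA had 18.4, 22.2 and 40.4 FPKM in rhPOSTN libraries, against 16.4, 16.97 and 33.5 FPKM in PBS libraries, with overlap of the groups. The summed locus had 50.7 ± 10 FPKM in rhPOSTN and 34.8 ± 17 FPKM in PBS libraries (SD, n = 3 each), which is 0.61 ± 0.33 on the log2 scale (SE, limma adjusted p = 0.994). The ratio of AL132780.3 to the sum of both genes passed with an adjusted p of 0.0365 (limma). Without PBS library 3 the member alone kept its call (adjusted p = 0.000388, where 0.0638% of all tested rows passed as higher), and the adjusted p of the ratio was above the threshold, as it also was without rhPOSTN library 1, rhPOSTN library 2, PBS library 1 or PBS library 2.

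Across the 169 members with a same-strand overlap, the summed loci gave 0 calls with limma, against 0.0% of the 915 rows with an overlap in each direction. At an unadjusted p under 0.05, 3 summed loci of members were higher (BIVM-ERCC5, AC068580.4 and MSH5-SAPCD1) and 0 were lower. The corresponding shares over all 915 rows were 2.62% and 0.546%. For the ratio of a member to its overlapping rows, AL132780.3 was the 1 call and it was higher, against 0.109% of the 915 rows called higher and 0.219% called lower. At an unadjusted p under 0.05 the ratio was higher for 7 members and lower for 4, or 4.14% and 2.37% of members against 2.3% and 2.4% of the 915 rows.

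**Figure D4:**
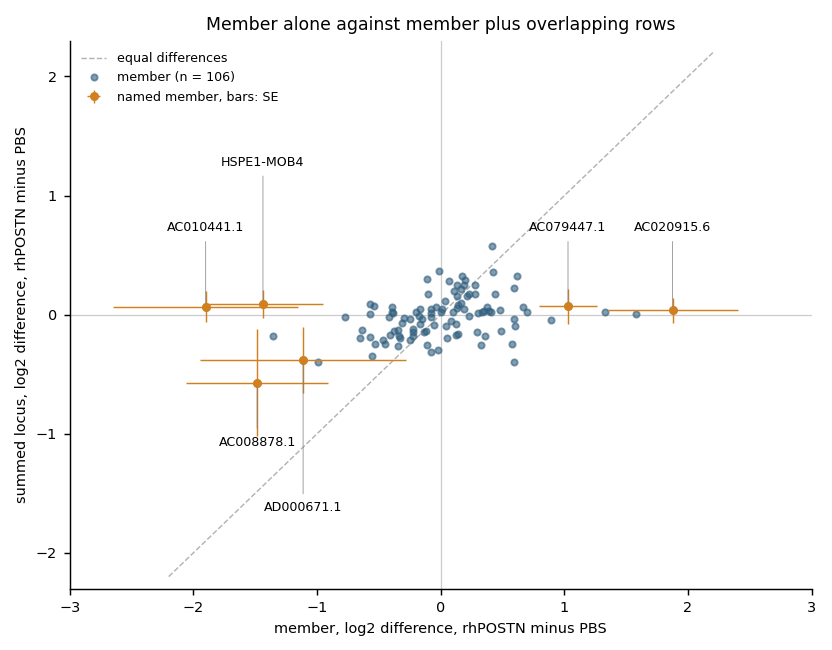
log2 difference, rhPOSTN minus PBS, of the summed locus (vertical axis) against that of the member alone (horizontal axis) for 106 tested members with a same-strand overlap. The 4 members listed at 0 in every library of a group were left out (AL132780.3, AC008763.3, MINOS1-NBL1 and ARL2-SNX15); bars are standard errors of named members with a difference beyond 0.9 in either direction, and these points spread widely along the horizontal axis while most stay near 0 on the vertical axis.

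HSPE1-MOB4 (chromosome 2, 198365137 to 198415450, plus strand) joins the mitochondrial co-chaperonin HSPE1 to MOB4, a component of striatin phosphatase complexes. Its FPKM was 5.22, 2.13 and 2.58 in rhPOSTN libraries, against 4.90, 10.4 and 19.7 in PBS libraries. The groups overlapped through rhPOSTN library 1 and PBS library 1, and the log2 difference was -1.44 ± 0.48 (SE) with an adjusted p of 0.951 (limma). MOB4 had 17.7, 18.6 and 20.3 FPKM in rhPOSTN libraries, against 8.65, 8.55 and 4.80 FPKM in PBS libraries. Its groups did not overlap, and its log2 difference of 1.29 ± 0.22 (SE) was past an unadjusted p (0.000722) but not the adjusted one (0.881, limma).

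The log2 differences of the member and of MOB4 had opposite signs, and that of HSPE1 was -0.0046 ± 0.15 (SE). The summed FPKM of the 3 rows was 48.9, 54.2 and 53.7 in rhPOSTN libraries, against 44.1, 52.7 and 50.7 in PBS libraries. The sum differed by 0.09 ± 0.12 on the log2 scale (SE, limma adjusted p = 0.994). Of the 890 exonic bases of HSPE1-MOB4, 78.4% belonged to MOB4 and 21.6% to HSPE1.

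AC010441.1 (chromosome 5, 150157867 to 150176297, plus strand) overlapped SMIM3, which encodes a small integral membrane protein, and was not found in GENCODE 29. Its FPKM was under 0.01 in all 3 rhPOSTN libraries, against 5.71, under 0.01 and 6.77 in PBS libraries 1, 2 and 3. SMIM3 had 6.23, 5.82 and 6.49 FPKM in rhPOSTN libraries, against 5.18 FPKM in PBS library 2, and was listed at 0 in PBS libraries 1 and 3. In each library, then, 1 of the rows held nearly all of the signal. The sum was 6.18 ± 0.339 FPKM in rhPOSTN and 5.89 ± 0.807 FPKM in PBS libraries (SD, n = 3 each). The log2 difference was -1.90 ± 0.75 for AC010441.1 and 1.97 ± 0.69 for SMIM3, against 0.07 ± 0.13 for the sum (SE). All 3 missed the threshold (limma adjusted p = 0.951, 0.951 and 0.994). Without PBS library 2, AC010441.1 passed as lower with an adjusted p of 0.00305 (limma), and its summed locus did not. In that fit 0.0272% of all tested rows were called. It left out the 1 PBS library where the member was under 0.01 FPKM, as in rhPOSTN libraries. The member passed the filter through its PBS values alone, which favours a difference in that direction.

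AC020915.6 (chromosome 19, 58740280 to 58826549, plus strand) spans the zinc finger genes ZNF544 and ZNF8 and overlapped the members AC020915.1 and AC020915.2. Its FPKM was 4.15, 5.21 and 5.12 in rhPOSTN libraries, against 2.93 in PBS library 1 and under 0.01 in PBS libraries 2 and 3. Every rhPOSTN value exceeded every PBS value, and the difference came to 1.87 ± 0.53 on the log2 scale (SE, limma adjusted p = 0.951). Without PBS library 1 it passed, with an adjusted p of 0.0187 (limma), where 0.0182% of all tested rows were called. That fit left out the 1 PBS library with a value above 0.01 FPKM. The member passed the filter through its rhPOSTN values alone, which favours a difference in that direction. AC020915.1 had 4.03, 2.68 and 3.86 FPKM in rhPOSTN libraries, against 5.25, 4.24 and 7.44 FPKM in PBS libraries, and its log2 difference was -0.54 ± 0.22 (SE) with an adjusted p of 0.951 (limma).

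AC020915.2 had 0.396, 0.255 and 0.218 FPKM in rhPOSTN libraries, against 0, 4.30 and 0.313 FPKM in PBS libraries, so that PBS library 2 alone was high. The sum of AC020915.6 and its 4 overlapping rows was 11.8, 11.6 and 12.7 FPKM in rhPOSTN libraries, against 11.3, 12.1 and 11.8 FPKM in PBS libraries. This sum differed by 0.04 ± 0.10 on the log2 scale (SE, limma adjusted p = 0.994), and over the 6 libraries AC020915.6 and the sum of the other rows had a correlation of -0.98.

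RAB4B-EGLN2 (chromosome 19, 41284147 to 41314103, plus strand) joins RAB4B, a small GTPase of endosomal recycling, to EGLN2, a prolyl hydroxylase that acts on hypoxia-inducible factors. Its FPKM was under 0.01 in all 3 rhPOSTN libraries, against 1.16, 0.875 and 0.0759 in PBS libraries. The groups did not overlap, but a mean below 1 FPKM in both groups kept it out of the test. Without PBS library 3 its PBS mean alone lifted it past the filter, which favours a difference in that direction. In that fit, where 0.0365% of all tested rows were called lower, it had a log2 difference of -1.002 ± 0.089 (SE) with an adjusted p of 0.0445 (limma), against -0.70 with an adjusted p of 0.942 over all libraries without the filter. EGLN2 had 7.58, 5.99 and 5.03 FPKM in rhPOSTN libraries, against 4.58, 4.65 and 10.3 FPKM in PBS libraries. The summed locus had a log2 difference of -0.13 ± 0.28 (SE) over all libraries and 0.18 ± 0.14 without PBS library 3, so its sign turned with that library (limma adjusted p = 0.994 and 0.67).

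AC079447.1 (chromosome 2, 99757948 to 99939204, plus strand) runs from C2orf15 into MRPL30, a protein of the mitochondrial ribosome, and overlapped 4 rows. Its FPKM was 2.25, 2.51 and 1.64 in rhPOSTN libraries, against 0.830, 0.793 and 0.0787 in PBS libraries, without overlap. Its PBS values all lay below 1 FPKM, so it passed the filter through its rhPOSTN values alone, which favours a difference in that direction. It differed by 1.03 ± 0.23 on the log2 scale (SE, limma adjusted p = 0.951), and the summed locus by 0.07 ± 0.15. MRPL30 had 6.39, 7.04 and 8.75 FPKM in rhPOSTN libraries, against 10.9, 10.5 and 8.02 FPKM in PBS libraries.

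For MSH5-SAPCD1 the member, both parents and their sum all had log2 differences above 0. It joins MSH5, a MutS homologue of meiotic recombination, to SAPCD1, and had 4.28, 4.57 and 5.83 FPKM in rhPOSTN libraries, against 2.71, 3.79 and 2.12 FPKM in PBS libraries. The groups did not overlap, with a log2 difference of 0.62 ± 0.19 for the member and 0.32 ± 0.13 for the summed locus (SE, limma adjusted p = 0.951 and 0.994). MSH5 differed by 0.13 ± 0.13 and SAPCD1 by 0.16 ± 0.20 (SE), and neither passed the test.

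SAA2-SAA4, which joins acute-phase and constitutive serum amyloid A genes, had 2.18, 1.85 and 2.35 FPKM in rhPOSTN libraries, against 0.940, 1.68 and 1.33 FPKM in PBS libraries. SPECC1L-ADORA2A, which joins a cytoskeletal linker gene to an adenosine receptor gene that was not analysed here, had 1.84, 2.56 and 1.32 FPKM in rhPOSTN libraries, against 1.08, 1.24 and 0.473 FPKM in PBS libraries. Neither pair of groups overlapped, and the log2 differences were 0.44 ± 0.15 and 0.59 ± 0.22 (SE, limma adjusted p = 0.951 for both). The PBS mean of SPECC1L-ADORA2A lay below 1 FPKM, so it passed the filter through its rhPOSTN values alone. This favours a difference in that direction. SPECC1L itself differed by -0.16 ± 0.15 (SE), with 10.3, 9.24 and 11.2 FPKM in rhPOSTN libraries, against 13.2, 12.1 and 9.63 FPKM in PBS libraries, and these groups overlapped. AC009779.3, AC026464.3, NCBP2-AS2 and AL161911.1 were the remaining named members with non-overlapping groups and higher rhPOSTN values, with log2 differences of 0.59, 0.66, 0.22 and 0.73 and an adjusted p of 0.951 each (limma). NCBP2-AS2 had 17.7 ± 1.07 FPKM in rhPOSTN and 15.1 ± 0.887 FPKM in PBS libraries (SD, n = 3 each), and NCBP2, a subunit of the nuclear cap-binding complex, had 15.4, 17.2 and 16.6 FPKM in rhPOSTN libraries, against 16.3, 16.7 and 11.6 FPKM in PBS libraries.

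Lower values without overlap were seen for RBM14-RBM4, AC020915.1 and MINOS1-NBL1. MINOS1-NBL1 had a value above 0.01 FPKM in PBS library 3 alone and passed the filter through that library alone. Its lack of overlap otherwise rests on values near the floor. RBM14-RBM4 joins neighbouring genes of RNA-binding proteins that act in transcription and splicing, and had 5.06, 4.87 and 4.19 FPKM in rhPOSTN libraries, against 6.83, 5.32 and 7.73 FPKM in PBS libraries. Its log2 difference was -0.41 ± 0.16, and that of the summed locus was -0.17 ± 0.11 (SE, limma adjusted p = 0.951 and 0.994). AC008878.1, which overlaps the zinc finger gene ZNF358, had 18.7, 6.83 and 6.59 FPKM in rhPOSTN libraries, against 20.7, 17.4 and 63.3 FPKM in PBS libraries, and the groups overlapped (log2 difference -1.48 ± 0.57, SE, limma adjusted p = 0.951). ZNF358 had 13.7, 16.3 and 12.9 FPKM in rhPOSTN libraries, against 6.08, 6.86 and 12.8 FPKM in PBS libraries.

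The members with the highest mean levels included loci in which a member and a parent traded places between libraries of 1 group. BLOC1S5-TXNDC5 (chromosome 6, 7881755 to 8064597, minus strand) joins BLOC1S5, a subunit of a complex for lysosome-related organelles, to TXNDC5, a protein disulfide isomerase of the endoplasmic reticulum. It had 1.26, 139 and 130 FPKM in rhPOSTN libraries, against 147, 152 and 1.93 FPKM in PBS libraries. TXNDC5 had 97.9, 4.55 and 5.04 FPKM in rhPOSTN libraries, against 5.22, 5.86 and 123 FPKM in PBS libraries. The member was therefore low, and TXNDC5 high, in 1 library of each group, rhPOSTN library 1 and PBS library 3.

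The share of BLOC1S5-TXNDC5 in the summed FPKM of its locus was 1.15%, 90.2% and 88.8% in rhPOSTN libraries, against 89.5%, 90.6% and 1.48% in PBS libraries. The sum itself was 137 ± 24 FPKM in rhPOSTN and 154 ± 20.5 FPKM in PBS libraries (SD, n = 3 each). The member and TXNDC5 had a correlation of -0.99 over the 6 libraries, and 87.7% of the exonic bases of the member belonged to TXNDC5. The log2 difference of the member was -0.23 ± 2.1, so that its interval was wide in either direction (SE, limma adjusted p = 0.987).

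**Figure D5:**
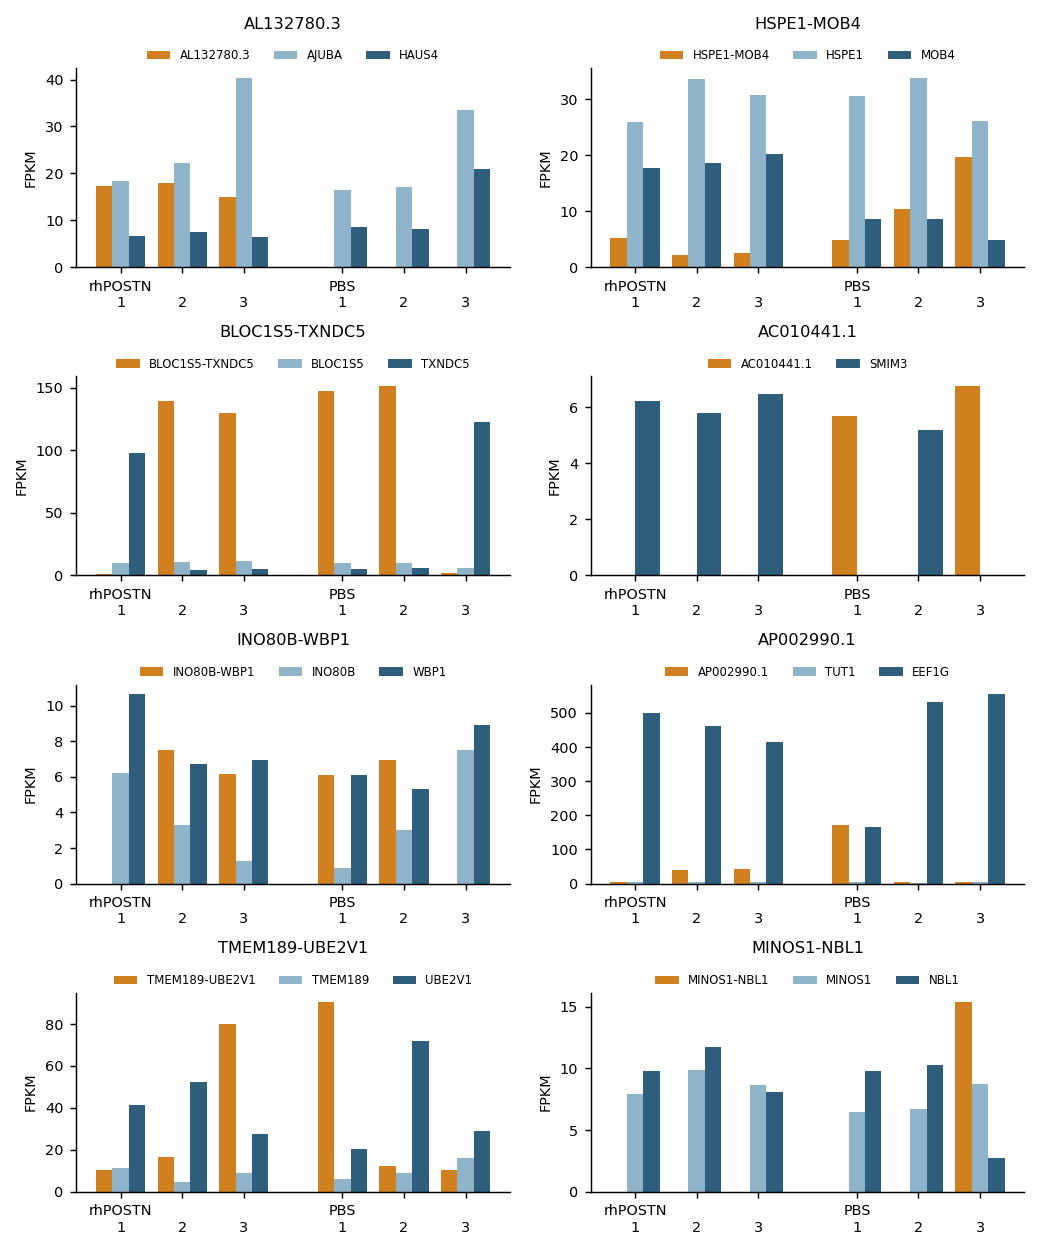
FPKM (vertical axes, from 0) of 8 members (orange bars) and of their parent or overlapping genes (blue bars) in rhPOSTN libraries 1 to 3 and PBS libraries 1 to 3. In the panels of BLOC1S5-TXNDC5, AC010441.1 and INO80B-WBP1 a member is near 0 where a gene beside it is high, in libraries of either group.

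INO80B-WBP1 (chromosome 2, 74682215 to 74688011, plus strand) joins INO80B, a subunit of the INO80 chromatin remodelling complex, to WBP1, a protein that binds WW domains. It was listed at 0 in rhPOSTN library 1 and had 7.49 and 6.17 FPKM in rhPOSTN libraries 2 and 3, against 6.11 and 6.95 FPKM in PBS libraries 1 and 2 and 0 in PBS library 3. INO80B had 6.21, 3.32 and 1.26 FPKM in rhPOSTN libraries, against 0.887, 3.01 and 7.53 FPKM in PBS libraries. These are the same libraries in which BLOC1S5-TXNDC5 was low. The sum with INO80B and WBP1 was 16.3 ± 1.65 FPKM in rhPOSTN and 15 ± 1.7 FPKM in PBS libraries (SD, n = 3 each).

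TMEM189-UBE2V1 joins TMEM189, an enzyme of plasmalogen synthesis, to UBE2V1, a ubiquitin-conjugating enzyme variant. It had 10.4, 16.3 and 80.0 FPKM in rhPOSTN libraries, against 90.5, 12.2 and 10.3 FPKM in PBS libraries. UBE2V1 had 41.6, 52.2 and 27.5 FPKM in rhPOSTN libraries, against 20.4, 72.1 and 29.1 FPKM in PBS libraries. The high libraries of the member were rhPOSTN library 3 and PBS library 1, a different pair from that of BLOC1S5-TXNDC5. The summed locus had 84.3 ± 28.4 FPKM in rhPOSTN and 88.4 ± 30.9 FPKM in PBS libraries (SD, n = 3 each).

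AP002990.1 overlapped TUT1, a terminal uridylyltransferase, and EEF1G, a subunit of translation elongation factor. It had 4.84, 39.6 and 43.1 FPKM in rhPOSTN libraries, against 171, 3.37 and 5.37 FPKM in PBS libraries. EEF1G had 499.6, 461 and 416 FPKM in rhPOSTN libraries, against 167, 533 and 555 FPKM in PBS libraries, so that it was lowest in the library where the member was highest. In GENCODE 29 the exons of AP002990.1 covered 99.9% of the exonic bases of EEF1G.

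NME1-NME2, from neighbouring nucleoside diphosphate kinase genes, had the highest mean of all members. Its FPKM was 192, 192 and 163 in rhPOSTN libraries, against 159, 168 and 379 in PBS libraries. Only PBS library 3 stood out, with a difference of -0.25 ± 0.34 on the log2 scale over all libraries (SE, limma adjusted p = 0.951) and 0.16 ± 0.10 without that library. The member took 60.8% to 68.5% of the summed FPKM of its locus in rhPOSTN libraries, against 58.7%, 59.1% and 79.3% in PBS libraries. RPL17-C18orf32, which holds the ribosomal protein gene RPL17, had 25.9 ± 1.97 FPKM in rhPOSTN and 23.4 ± 0.727 FPKM in PBS libraries (SD, n = 3 each). AC007240.1, which overlaps RRM2, a subunit of ribonucleotide reductase, had 33.9 ± 4.22 FPKM in rhPOSTN and 32.8 ± 2.94 FPKM in PBS libraries. These last 2 varied little, unlike AC120057.3, which overlaps the autophagy gene GABARAP and had 14.4, 19.3 and 65.4 FPKM in rhPOSTN libraries, against 29.7, 33.9 and 23.2 FPKM in PBS libraries.

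Several members were listed at 0 in at least 1 library and reached several FPKM in another. MINOS1-NBL1 joins a subunit of the mitochondrial contact site complex to NBL1, a secreted antagonist of bone morphogenetic proteins. It was listed at 0 in all 3 rhPOSTN libraries, against values under 0.01 FPKM in PBS libraries 1 and 2 and 15.4 FPKM in PBS library 3. NBL1 had 9.76, 11.7 and 8.09 FPKM in rhPOSTN libraries, against 9.79, 10.3 and 2.75 FPKM in PBS libraries, and was lowest where the member was present. ISY1-RAB43, from a splicing factor gene and a small GTPase gene, had 7.41 FPKM in rhPOSTN library 1 and 7.80 FPKM in PBS library 2 and was listed at 0 in the other 4 libraries. AC008763.3, which overlaps TRAPPC5, a subunit of a vesicle tethering complex, had 9.81 FPKM in PBS library 1 and was listed at 0 in the other 5. AD000671.1, from PSENEN, a subunit of gamma-secretase, and LIN37, a subunit of the DREAM repressor complex, had 0, 0 and 1.14 FPKM in rhPOSTN libraries, against 0, 1.10 and 9.32 FPKM in PBS libraries. AC068631.2, which overlaps the co-chaperone gene DNAJB11, had 1.77, 9.47 and 2.86 FPKM in rhPOSTN libraries, against 7.88, 5.01 and 0 FPKM in PBS libraries.

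A pair of further loci was picked after the values were seen. AC118553.2, from the sugar nucleotide transporter gene SLC35A3 and MFSD14A, had 13.6, 1.02 and 15.5 FPKM in rhPOSTN libraries, against 13.6, 0.835 and 0.154 FPKM in PBS libraries. MFSD14A had 6.49, 30.9 and 7.72 FPKM in rhPOSTN libraries, against 6.94, 33.0 and 20.6 FPKM in PBS libraries, high where the member was low. AC012184.2 joins DDX19B to DDX19A, neighbouring genes of helicases in mRNA export, and had 0.327, 0.236 and 0.272 FPKM in rhPOSTN libraries, against 0.270, 0.245 and 21.2 FPKM in PBS libraries. Of the 122 tested members, 36.9% had their highest value in PBS library 3, against 30.1% of all tested rows.

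The genes that end transcription, join exons and remove aberrant transcripts were read from lists. All 38 listed genes of 3′ end processing and termination, which cleave the nascent RNA and release the polymerase, were tested. Of these, 0 passed the test in either direction at an adjusted p of 0.05 or at an unadjusted p under 0.05 (limma). Their median log2 difference was 0.01, against 0.06 over all tested rows. All 25 genes of nonsense-mediated decay were tested with 0 calls by either threshold and a median of -0.01. The 14 genes of splice site recognition gave 0 calls by either threshold and a median of -0.14.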

How the data were processed

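RNA of HMC3 cells was measured in 3 rhPOSTN and 3 PBS libraries. By the authors' account, poly(A) RNA was captured on oligo(dT) beads and made into stranded libraries, HISAT2 aligned the reads, and StringTie and Ballgown gave abundances. The deposited values are FPKM per gene and library on GRCh37, as the submitters' processing notes name it. The rhPOSTN table names no unit, so its unit was inferred from the PBS table. Because StringTie apportions ambiguous reads between transcripts, those in shared exons can be given to a member or to an overlapping row. The versions of HISAT2, StringTie and Ballgown, and the strand setting of the estimates, were not given in the sources used here. Depth is unknown, and no column with values of a sample was set aside.

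Values were analysed as log2(FPKM + 1), which understates differences of low genes. Rows with a mean of at least 1 FPKM in 1 group were compared with limma 3.58.1 (R 4.3.3, eBayes with trend) and Benjamini-Hochberg adjustment over all 10982 tested rows, at 0.05. Summed loci were fitted in the same way over the 915 rows with a same-strand overlap, all of which passed the filter on the sum. Log2 ratios of a row to its same-strand overlapping rows were fitted over the same 915 rows, without a filter and without trend. The procedures were tested on simulated data. An exact test of 3 against 3 libraries cannot go below p = 0.1. Exons and junctions came from GENCODE 29 on GRCh38, by Ensembl identifier. Members and lists were chosen with earlier results of these data known. Named were members past the threshold, up to 10 tested members per direction with non-overlapping groups and the smallest p, the 8 with the highest mean, the 8 with a 0 and the highest FPKM elsewhere, and HSPE1-MOB4, RAB4B-EGLN2, AL132780.3, AC020915.6 and AC010441.1. Alternatives were pseudocounts of 0.1 and 5, other filters, 2 rescalings, limma without trend or with robust hyperparameters, a block, other overlap rules and each library left out. Results of some genes outside the members are not reported here.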

Additional observations from a re-analysis of the deposited data

How the results depend on the processing

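The count of 1 called member held under each pseudocount, filter, rescaling and limma setting tried, and it was 0 for hyphenated names alone. With each library left out in turn the count was between 1 and 2: AL132780.3 was called every time, AC020915.6 was added without PBS library 1, AC010441.1 without PBS library 2 and RAB4B-EGLN2 without PBS library 3. Over all tested rows these 3 fits called 2 of 11007, 3 of 11011 and 11 of 10969. In each of the 3, the library left out held the PBS value nearest to the rhPOSTN values. Each added member, like AL132780.3, passed the filter through 1 group alone. The adjusted p of AL132780.3 ranged from 3.15e-05 to 0.0186 over all alternatives (limma). Calls of summed loci were 0 under every alternative. Calls of the ratio were 2 with a pseudocount of 0.1, which added AC008982.1, 0 with a pseudocount of 5, and between 0 and 1 with a library left out. The call was AL132780.3 only without rhPOSTN library 3. It was AC020915.6, higher, without PBS library 1 (adjusted p = 0.0355, limma), where 1 of 913 rows was called higher. Without PBS library 2 it was AC010441.1, lower (adjusted p = 0.000681, limma), where 3 of 915 rows were called lower. No other filter or trend setting existed for the ratio than a filter at 1 or 5 FPKM and robust hyperparameters.

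Of 29 named members with a test, 9 changed sign under some alternative. AC007240.1 turned to -0.036 under the median of ratios. With each library left out in turn, values ran from -0.47 to 0.16 for NME1-NME2, with the opposite sign once PBS library 3 was left out, and from -0.0397 to 0.14 for AC007240.1. They ran from -2.12 to 1.74 for BLOC1S5-TXNDC5, from -0.60 to 2.05 for AP002990.1, from -0.76 to 1.05 for TMEM189-UBE2V1, from -0.75 to 0.31 for AC120057.3, from -0.60 to 0.98 for AC068631.2, from -1.05 to 1.02 for ISY1-RAB43 and from -0.94 to 1.02 for INO80B-WBP1. The cause was not tested.

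Whether the library numbers pair the samples is not stated. Deviations of same-numbered libraries had correlations of -0.04, -0.19 and -0.42, against -0.27 to 0.38 for differently numbered libraries. With 3 libraries per group and PBS library 3 apart from the rest, these values cannot exclude a pairing. In the fit with a replicate block, 1 member was called and the ratio gave 1 call. Without read counts, the low levels of most members carry no stated precision, and the median standard error of members was 0.34, so small differences could not be resolved.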
